A study of Homo sapiens with 4 samples.

Results

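The 7 human APOBEC3 genes were followed across 4 RNA-seq libraries from ovarian cancer cultures. They are APOBEC3A, APOBEC3B, APOBEC3C, APOBEC3D, APOBEC3F, APOBEC3G and APOBEC3H, and they were taken by name from the 52402 gene symbols that were counted. The family was selected on its counts, line differences and knockout ratios in these same libraries, so its values are given as a description and carry no test. The cultures were labelled SKOV3 and OVCAR3, both established human ovarian cancer epithelial lines. In each line a mock control (genotype label Control) was set beside a HERV-K119 KO culture. In the knockout cultures the env gene of HERV-K, an endogenous retrovirus family, had been targeted with CRISPR-Cas9. All 4 cultures, mock controls included, received hygromycin at 100 µg/mL for 2 days, starting about 18 h after transfection. Each line thus gave 1 mock and 1 KO library, so no difference has a replicate check, and nothing in the labels says whether a knockout culture was 1 clone or a pool.

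APOBEC3 proteins are cytidine deaminases that convert cytosine to uracil in DNA that is exposed as a lone strand, such as the first cDNA strand of a reverse-transcribing virus. They restrict retroviruses, endogenous retroviruses and LINE-1 retrotransposons, partly through this editing and partly by blocking reverse transcription. In epithelial tumours APOBEC3A and APOBEC3B are known above all as sources of cytosine mutations in the tumour's own genome. APOBEC3D, APOBEC3F, APOBEC3G and APOBEC3H are known for being packaged into HIV particles that lack the viral protein Vif.

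All 7 genes stand side by side, on the plus strand, in a cluster of 146.5 kb at chr22:38957609-39104067 (GRCh38.p14, RefSeq coordinates). Each active or pseudocatalytic domain carries a zinc-binding motif in which a histidine, a glutamate and a pair of cysteines stand in a fixed order. This motif was found 1 time in the coding sequence of APOBEC3A, APOBEC3C and APOBEC3H, and 2 times in that of APOBEC3B, APOBEC3D, APOBEC3F and APOBEC3G (GENCODE 29 transcripts, GRCh38). The stretches are shown as places where members can share reads: 3 pairs of genes had the identical sequence here. They do not cover all such places, as the longer comparison below shows. The stretch of APOBEC3A lies in exon 4 at chr22:38961420-38961530, and the same letters stand in exon 6 of APOBEC3B at chr22:38991365-38991475. The first stretch of APOBEC3B, in exon 3 at chr22:38985833-38985937, was identical to the first of APOBEC3F, in exon 3 at chr22:39044962-39045066. The second stretch of APOBEC3D, in exon 6 at chr22:39031715-39031819, was identical to the second of APOBEC3F, in exon 6 at chr22:39052095-39052199. The first of APOBEC3D lies in exon 3 at chr22:39025091-39025195. Those of APOBEC3C and APOBEC3H lie in exon 3 at chr22:39017787-39017891 and in exon 3 at chr22:39101246-39101350. Those of APOBEC3G lie in exon 3 at chr22:39080954-39081061 and in exon 6 at chr22:39086312-39086416. Capitals mark the codons of the histidine, the glutamate, the proline and both cysteines of the motif, and every stretch reads 5′ to 3′ on the plus strand.
APOBEC3A and second of APOBEC3B: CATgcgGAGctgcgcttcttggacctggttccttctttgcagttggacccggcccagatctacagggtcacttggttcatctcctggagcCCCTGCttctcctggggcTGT
First of APOBEC3B and first of APOBEC3F: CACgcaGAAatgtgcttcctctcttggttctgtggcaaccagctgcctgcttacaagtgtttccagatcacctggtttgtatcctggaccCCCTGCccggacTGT
First of APOBEC3D: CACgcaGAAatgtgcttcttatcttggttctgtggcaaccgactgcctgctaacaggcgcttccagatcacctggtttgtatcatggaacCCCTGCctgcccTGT
Second of APOBEC3D and second of APOBEC3F: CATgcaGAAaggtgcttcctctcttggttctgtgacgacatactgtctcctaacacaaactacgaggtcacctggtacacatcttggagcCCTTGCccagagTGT
APOBEC3C: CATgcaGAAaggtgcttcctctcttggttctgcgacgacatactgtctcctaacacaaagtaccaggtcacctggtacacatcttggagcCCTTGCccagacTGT
First of APOBEC3G: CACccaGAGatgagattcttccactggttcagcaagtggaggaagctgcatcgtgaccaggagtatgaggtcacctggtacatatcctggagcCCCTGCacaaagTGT
Second of APOBEC3G: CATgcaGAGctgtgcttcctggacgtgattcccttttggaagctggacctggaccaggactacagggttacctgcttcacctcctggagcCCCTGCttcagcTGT
APOBEC3H: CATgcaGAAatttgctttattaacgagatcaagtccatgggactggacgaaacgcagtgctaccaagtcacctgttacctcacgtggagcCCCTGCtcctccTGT

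The stretch of APOBEC3C differed from the shared second stretch of APOBEC3D and APOBEC3F at 4 of 105 bases (96.2% identity). The first stretches of APOBEC3D and APOBEC3F were 87.6% identical, and the second stretch of APOBEC3G was 61.9% identical to that of APOBEC3H. Over the longest coding transcript, 27.5% of the 50-base windows of APOBEC3B, 24.0% of those of APOBEC3F, 19.2% of those of APOBEC3A, 19.1% of those of APOBEC3G and 15.3% of those of APOBEC3D also occurred in another member. In APOBEC3C this share was 1.16%, and in APOBEC3H it was 0. The pair that shared most was APOBEC3F and APOBEC3G, with 301 of the 50-base windows, although their motif stretches were not identical. The ratio of APOBEC3G to APOBEC3F within a library, given below, is uncertain by such reads. How the authors counted reads that match several members is not given in the sources used here, so counts of APOBEC3A, APOBEC3B, APOBEC3D, APOBEC3F and APOBEC3G are uncertain by the reads that those windows could exchange.

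The libraries held between 15145483 and 22057693 counts. In 3 of them mitochondrially encoded transcripts took between 5.16% and 5.93% of the counts, and in the OVCAR3 KO library they took 21.9%. All 7 epithelial markers reached 1 CPM (counts scaled to library size, here with the trimmed mean, or TMM, factors of edgeR) in every library, with a summed level between 5229 and 7690 scaled CPM in 3 libraries and 2109 in OVCAR3 KO. Of 15 blood cell markers, 7 to 9 were at 0, PTPRC, CD3E, CD2, MS4A1, NKG7 and TYROBP among them in all libraries, and their sum of 13.6 to 39.6 CPM was mostly CD68. CDKN2A, which is known to be deleted in SKOV3, had 90.6 and 91.2 CPM in the libraries labelled SKOV3, so the lines are named as the labels name them. It was 1 of 6 line identity genes looked up. The others were not set against known levels in these lines, so CDKN2A need not be the only one at odds with the labels. ERBB2 had 58.5, 55.7, 73.3 and 32.0 CPM in SKOV3 mock, SKOV3 KO, OVCAR3 mock and OVCAR3 KO. In that order PAX8 had 4.74, 5.64, 8.83 and 3.33 CPM, VIM 1.95, 2.35, 1.10 and 0.950, and MUC16 0.0443, 0.0634, 2.74 and 6.18. WT1 had 0 reads in all libraries. The line labels were not checked further. The targeted provirus was not analysed here, and the knockout was therefore not checked at the RNA level.

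APOBEC3C, a family member that restricts LINE-1 and acts weakly on HIV, had the highest count of the family in every library, with 776 reads in SKOV3 mock, 570 in SKOV3 KO, 2525 in OVCAR3 mock and 1783 in OVCAR3 KO. Scaled to library size, these are 34.4, 36.2, 154 and 121 CPM, so both OVCAR3 libraries lay above both SKOV3 libraries. APOBEC3F, an antiviral deaminase that HIV Vif counteracts, came next with 291, 253, 2007 and 1483 reads in the same order. Its levels were 12.9, 16.0, 122 and 101 CPM. Both OVCAR3 values again exceeded both SKOV3 values.

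APOBEC3G, the founding HIV restriction factor of the family, had 8 and 1 reads in the SKOV3 mock and KO libraries against 296 and 1013 in the OVCAR3 mock and KO libraries. In scaled CPM it stood at 0.354, 0.0634, 18.0 and 68.8. It was close to absent from the SKOV3 libraries and ranked among the upper members in OVCAR3. APOBEC3D, a Vif-sensitive member with 2 domains, had 34, 41, 65 and 499 reads in the order SKOV3 mock, SKOV3 KO and then OVCAR3 mock and KO, or 1.51, 2.60, 3.96 and 33.9 CPM. Only the OVCAR3 KO library stood far from the others for this gene. APOBEC3H, which has 1 domain and is the member most distant in sequence, had 19, 22, 72 and 88 reads, or 0.842, 1.40, 4.38 and 5.97 CPM.

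APOBEC3B, a nuclear deaminase linked to mutation in many carcinomas, was the only measured member with lower levels in both OVCAR3 libraries than in both SKOV3 libraries. Its counts were 114 in SKOV3 mock, 113 in SKOV3 KO, 53 in OVCAR3 mock and 20 in OVCAR3 KO, and its levels 5.05, 7.17, 3.23 and 1.36 CPM. APOBEC3A, a potent deaminase best known from myeloid cells and keratinocytes, had 2, 2, 0 and 6 reads. It stayed under 1 CPM in every library and was not measured by the rule used here. Its 0 in OVCAR3 mock leaves room for as many as 3 counts, or 0.184 CPM of that library's total. Reads carry no molecular identifiers, so intervals and this limit cover counting error only. In bulk RNA, fewer cells that express a gene and less of its RNA per cell cannot be told apart.

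**Figure D1:**
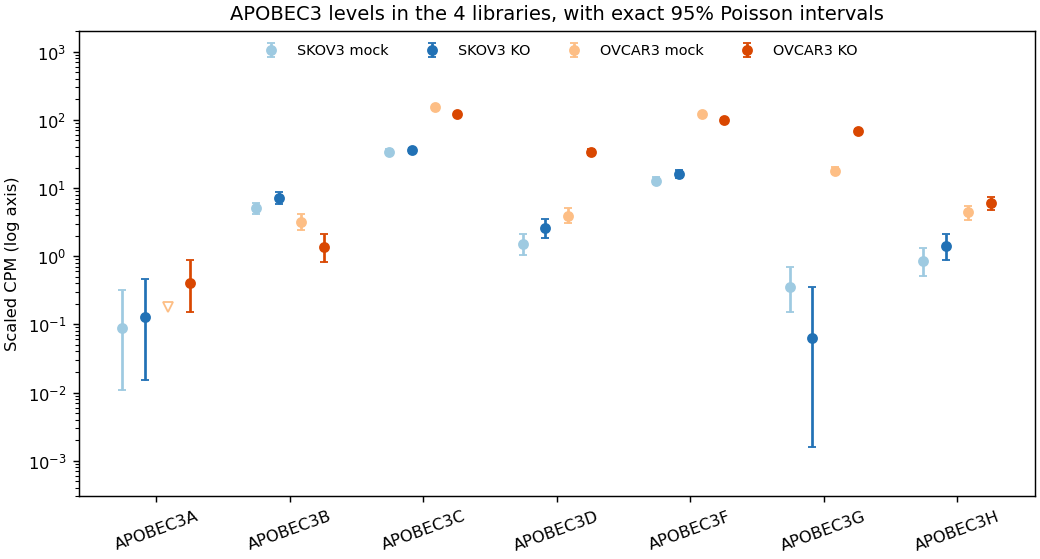
Scaled CPM (log axis) of each APOBEC3 gene in the 4 libraries. Points are single libraries, bars are exact 95% Poisson intervals of the count, and the open triangle stands at 3 counts where the count was 0 (APOBEC3A, OVCAR3 mock). APOBEC3C, APOBEC3D, APOBEC3F, APOBEC3G and APOBEC3H are higher in both OVCAR3 libraries than in both SKOV3 libraries. APOBEC3B is lower in both OVCAR3 libraries, and APOBEC3D stands out in OVCAR3 KO at 33.9 CPM.

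Levels of different genes were compared per kilobase of the longest GENCODE 29 transcript. In SKOV3 mock the order was APOBEC3C at 12.2 CPM per kb, APOBEC3F at 4.78, APOBEC3B at 2.74, APOBEC3H at 0.805, APOBEC3D at 0.596, APOBEC3G at 0.128 and APOBEC3A at 0.0599. The exact 95% counting intervals of neighbours overlapped for APOBEC3H and APOBEC3D (0.484 to 1.26 and 0.413 to 0.832) and for APOBEC3G and APOBEC3A. SKOV3 KO had the same first 5 genes in the same order, with 12.8 CPM per kb for APOBEC3C and 3.89 for APOBEC3B.

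In OVCAR3 mock APOBEC3C (54.5 CPM per kb) and APOBEC3F (45.3) were followed by APOBEC3G (6.49), APOBEC3H (4.19), APOBEC3B (1.75) and APOBEC3D (1.57). APOBEC3B and APOBEC3D did not differ beyond their intervals there, 1.31 to 2.29 and 1.21 to 1.99. In OVCAR3 KO the order was APOBEC3C (42.9), APOBEC3F (37.4), APOBEC3G (24.8), APOBEC3D (13.4), APOBEC3H (5.71), APOBEC3B (0.736) and APOBEC3A (0.276). APOBEC3D thus moved from the sixth to the fourth place, and APOBEC3B from the fifth to the sixth. The order of APOBEC3C and APOBEC3F depends on the length used: with the median transcript length of each gene in place of the longest, APOBEC3F took the larger share in all 4 libraries, 63.1% against 27.6% in OVCAR3 mock. The place of APOBEC3G in OVCAR3 KO depends on it too, since its longest transcript (2775 bases) is annotated as a retained intron. There APOBEC3G had 21% and APOBEC3C 20.7% of the summed per-length level with the median length, and APOBEC3G 27.2% and APOBEC3F 27.1% with the longest protein-coding transcript.

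Summed over the family, there were 1244 reads in SKOV3 mock, 1002 in SKOV3 KO, 5018 in OVCAR3 mock and 4892 in OVCAR3 KO. The sums were 55.1, 63.6, 305 and 332 scaled CPM. The OVCAR3 sum was 5.54-fold that of SKOV3 among the mock libraries (exact 95% counting interval 5.21 to 5.90) and 5.23-fold among the knockouts (4.88 to 5.60). Within a line the sum hardly differed: the knockout had 1.15-fold the mock level in SKOV3 (1.06 to 1.25) and 1.09-fold in OVCAR3 (1.05 to 1.13). The OVCAR3 order depends on the scaling, since with DESeq2 size factors the sum was 318.0 CPM in mock and 299 in KO.

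The make-up of the sum did differ. APOBEC3C gave 62.4% of the family's reads in SKOV3 mock, 56.9% in SKOV3 KO, 50.3% in OVCAR3 mock and 36.4% in OVCAR3 KO. APOBEC3G gave 0.643%, 0.0998%, 5.90% and 20.7% in the same order, and APOBEC3D 2.73%, 4.09%, 1.30% and 10.2%. The share of APOBEC3B was 9.16% and 11.3% in the SKOV3 libraries against 1.06% and 0.409% in the OVCAR3 libraries. For APOBEC3G in OVCAR3 the exact binomial 95% intervals were 5.26% to 6.59% in mock and 19.6% to 21.9% in KO, and for APOBEC3D 1.00% to 1.65% and 9.37% to 11.1%.

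**Figure D2:**
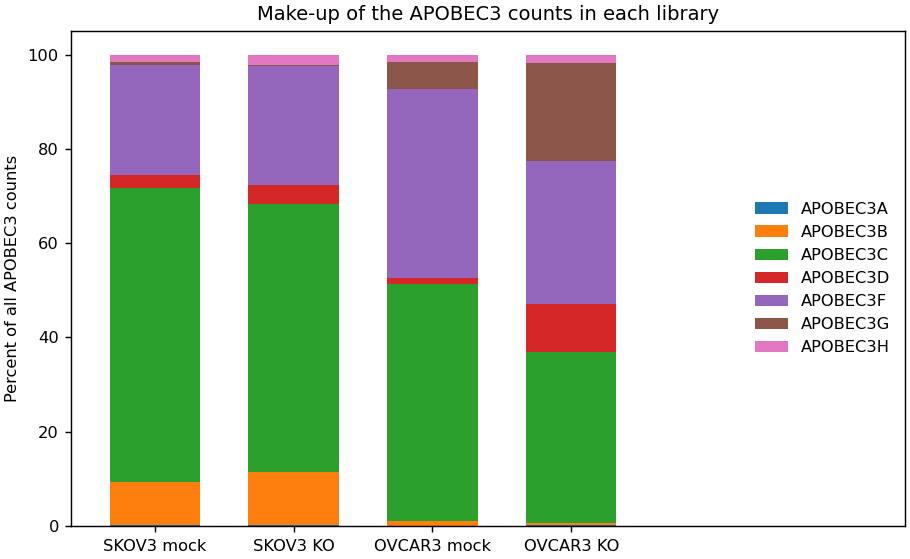
Stacked bars give the percentage of all APOBEC3 reads that came from each member, 1 bar per library, from 0 to 100%. APOBEC3C and APOBEC3F make up most of each bar, APOBEC3B is visible in the SKOV3 bars, and APOBEC3G and APOBEC3D together widen from the OVCAR3 mock bar (5.90% and 1.30%) to the OVCAR3 KO bar (20.7% and 10.2%).

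Ratios of members within a library need no scaling between libraries. APOBEC3G reads were 2.75% of the APOBEC3F reads in SKOV3 mock, 0.395% in SKOV3 KO, 14.7% in OVCAR3 mock and 68.3% in OVCAR3 KO. APOBEC3D reads were 11.7%, 16.2%, 3.24% and 33.6% of those of APOBEC3F in the same order. APOBEC3F itself was 37.5% and 44.4% of APOBEC3C in SKOV3 and 79.5% and 83.2% in OVCAR3, so this pair kept nearly the same proportion within each line. The exact 95% intervals of the last ratio overlapped between mock and KO in SKOV3 (32.7% to 43.0% and 38.1% to 51.6%) and in OVCAR3 (74.9% to 84.3% and 77.6% to 89.2%).

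The OVCAR3 mock library was first set against the SKOV3 mock library, which asks how the lines differ without the knockout. APOBEC3G was 50.8-fold higher in OVCAR3 (exact 95% counting interval 25.5 to 119, from 296 against 8 reads). APOBEC3F was 9.48-fold higher (8.38 to 10.8), APOBEC3H 5.21-fold (3.11 to 9.15), APOBEC3C 4.47-fold (4.12 to 4.85) and APOBEC3D 2.63-fold (1.71 to 4.10). APOBEC3B was 1.57-fold lower in OVCAR3 (1.12 to 2.21). None of these 6 intervals held a fold of 1.

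A gene was counted by size where its log2 ratio, with a prior count of 2, was at least 1 in either direction and it had at least 1 CPM in at least 1 of the 2 libraries. Between the mock libraries 5 of the 6 measured members were higher in OVCAR3 by this rule, where 9.47% of all 13721 measured genes were, and 0 were lower, against 5.52% of all genes. The members' median log2 ratio was 2.20, and that of all measured genes 0.01. Since these differences chose the family, nothing is read from the contrast with the background. Of the 5, APOBEC3C, APOBEC3F and APOBEC3G also passed with at least 5 CPM required.

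Between the knockout libraries 5 of 6 measured members were higher in OVCAR3 and 1, APOBEC3B, was lower, against 24.8% and 14.7% of 15464 measured genes. APOBEC3D was 13.0-fold higher in OVCAR3 KO (9.46 to 18.4), APOBEC3F 6.27-fold (5.49 to 7.20), APOBEC3H 4.28-fold (2.66 to 7.18) and APOBEC3C 3.35-fold (3.04 to 3.69). APOBEC3B was 5.28-fold lower (3.26 to 8.97). For APOBEC3G the ratio was 1084 with a counting interval from 194 to 42862, since SKOV3 KO had 1 read. Every library enters 2 of the 4 comparisons made here, so their values are not independent of each other.

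**Figure D3:**
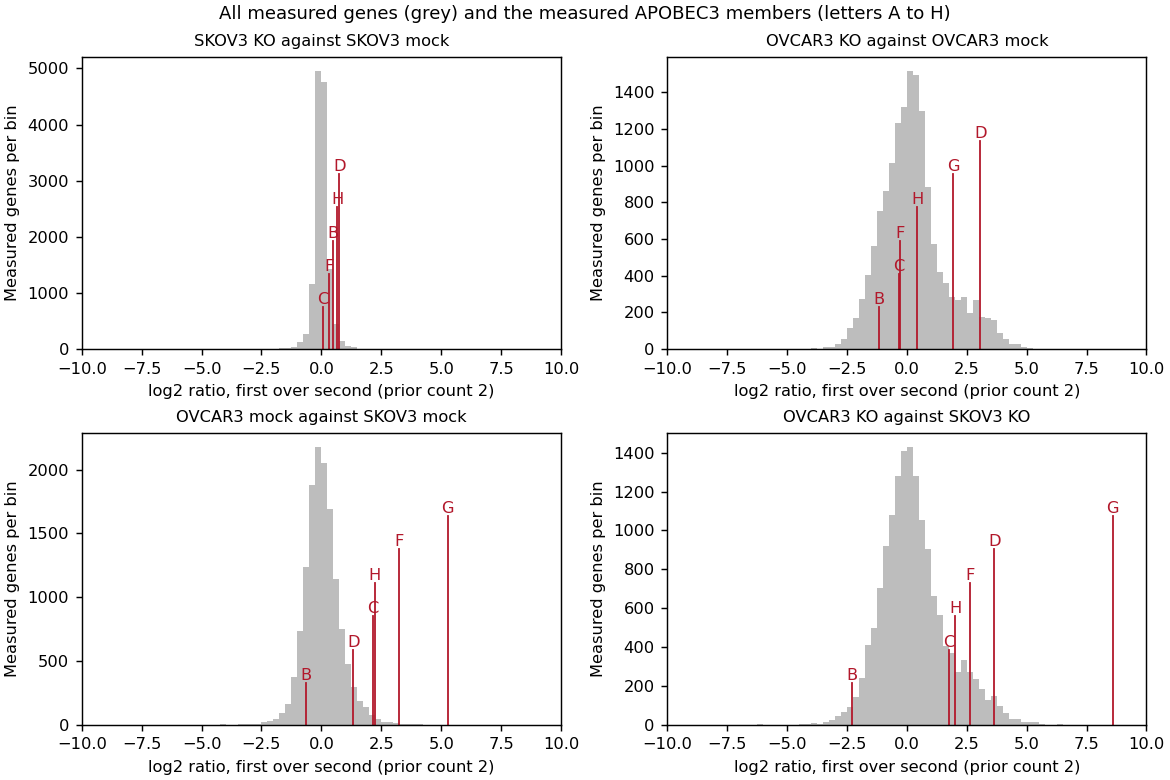
Grey bars count all measured genes by log2 ratio (prior count 2, bins of 0.25) in each of the 4 comparisons, and red lines mark the measured APOBEC3 members by their last letter (line heights only separate the labels). In the comparison of the mock libraries F and G lie at 3.23 and 5.27. The OVCAR3 knockout comparison has a much wider grey distribution than the SKOV3 one, with D at 3.06 and G at 1.93.

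The OVCAR3 KO library was set against OVCAR3 mock to see what accompanied the knockout in that line. APOBEC3D had 499 reads in KO and 65 in mock and was 8.56-fold higher (exact 95% counting interval 6.60 to 11.3). APOBEC3G had 1013 and 296 and was 3.82-fold higher (3.35 to 4.36). APOBEC3B had 20 and 53 and was 2.38-fold lower (1.40 to 4.20).

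The abundant members differed little between these libraries. APOBEC3C was 1.27-fold lower in the knockout (1.19 to 1.35) and APOBEC3F 1.21-fold lower (1.13 to 1.30). APOBEC3H was 1.36-fold higher with an interval that holds 1 (0.987 to 1.89). APOBEC3A had 6 reads against 0 and was not measured. It was at least 2.23-fold higher with the mock set to 3 counts, while the exact 95% interval of the fold, which also takes in the error of the 6 reads, begins at 1.31. By size 2 of 6 measured members were higher and 1 was lower, where 22% and 15.5% of 15409 measured genes were (12.8% and 18.3% of 12117 protein-coding ones). The members' median log2 ratio was 0.08 and that of all measured genes 0.15.

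Of the blood cell markers, 4 were measured between OVCAR3 KO and mock, of which 2 were higher and 0 lower by size: CD4 had 16 reads against 1 and LYZ 17 against 5, both named after their values were seen. The others measured, CD68 with 121 reads against 250 and CD8A with 28 against 41, did not pass the rule. Summed, the blood cell markers had 13.6 CPM in KO and 19.1 in mock. The part of these markers in the higher APOBEC3D and APOBEC3G was not tested, and PTPRC and CD3E were at 0 in both libraries. The OVCAR3 KO library stood apart from the others in its mitochondrial share of 21.9%, in its summed epithelial markers and in the width of its ratios. The part of these in the members' ratios was not tested. With mitochondrial rows left out before scaling, the ratios of all members kept their sign and stayed within their counting intervals. That setting moved the median of all measured genes by only 4.0e-05 in this comparison, so it could hardly change any ratio. With the trend on GC content and transcript length removed over 12077 protein-coding genes, the OVCAR3 KO ratios were 3.27 for APOBEC3D, 2.27 for APOBEC3G, -1.08 for APOBEC3B, -0.18 for APOBEC3C and 0.12 for APOBEC3H, and APOBEC3F came to -0.03. Other scalings moved the median of all measured genes in this comparison by -0.21 (DESeq2 size factors), -0.11 (no factor) and -0.29 (TMM from all genes). Higher genes were 58.6% of those past the size rule, and 48.3%, 53% and 44.7% under these 3 scalings. Members kept their signs in all of them. Beside that median of 0.15, the members' log2 ratios were 3.06 for APOBEC3D, 1.93 for APOBEC3G, 0.44 for APOBEC3H, -0.28 for APOBEC3F, -0.34 for APOBEC3C and -1.18 for APOBEC3B.

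In SKOV3, 0 of 5 measured members passed the size rule between KO and mock in either direction, where 0.799% of 13524 measured genes were higher and 0.739% lower. All 5 log2 ratios lay above 0, with a median of 0.50 against 0.01 for all measured genes. APOBEC3D was 1.73-fold higher in the knockout (1.07 to 2.81, 41 against 34 reads), APOBEC3B 1.42-fold (1.08 to 1.86) and APOBEC3H 1.66-fold (0.856 to 3.24). APOBEC3C had 1.05-fold the mock level (0.942 to 1.17), and the log2 ratio of APOBEC3F was 0.31 (0.07 to 0.56). APOBEC3G and APOBEC3A were not measured. For APOBEC3G, 1 read against 8 gives a ratio of 0.179 with a counting interval of 0.00403 to 1.34, so no difference was detectable at this depth.

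**Figure D4:**
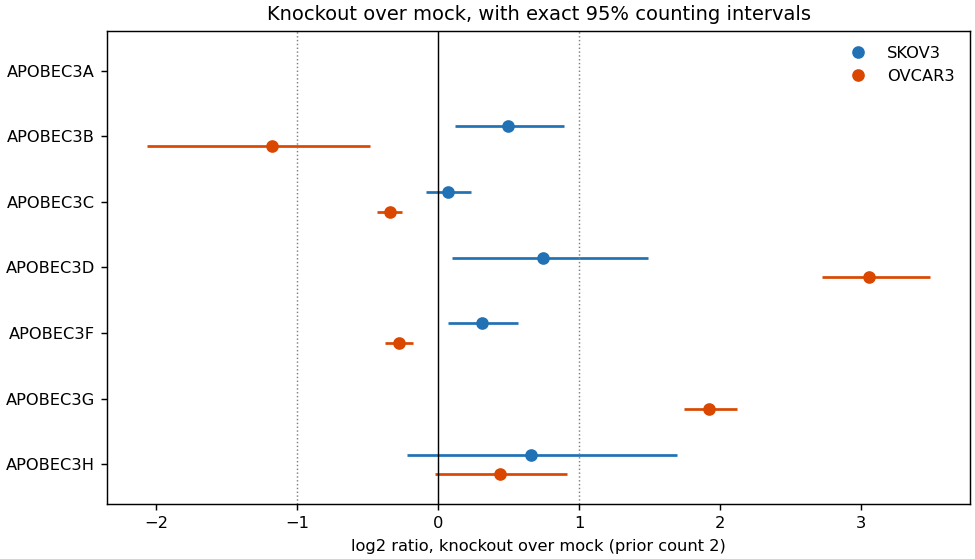
Log2 ratio of knockout over mock (prior count 2) for each measured APOBEC3 gene in SKOV3 (blue) and OVCAR3 (orange), with exact 95% counting intervals of the ratio without the prior. Dotted lines mark the size rule at -1 and 1, and genes that were not measured have no point. APOBEC3D and APOBEC3G lie beyond 1 and APOBEC3B beyond -1 in OVCAR3, while the SKOV3 points lie between 0.07 and 0.74.

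Genes and transcripts along the cluster were compared next. A pair of lncRNA genes lies between members at the downstream end. LOC107985563, between APOBEC3F and APOBEC3G, had 1, 1, 32 and 46 reads in the mock and KO libraries of SKOV3 and then of OVCAR3. LOC101927202, between APOBEC3G and APOBEC3H, had 2, 1, 22 and 57 reads. Both were thus seen almost only in OVCAR3, as APOBEC3G was. LOC105373033, between APOBEC3A and APOBEC3B, had at most 2 reads in any library. These 3 symbols were picked for their place in the cluster, after the member counts were known.

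The Polycomb genes CBX6 and CBX7 lie on the 2 sides of the cluster. CBX6, upstream at chr22:38861422-38872216, had 6933, 5140, 4780 and 1408 reads, with a log2 ratio of -0.08 between the mock libraries and -1.61 between OVCAR3 KO and mock (-1.69 to -1.52). CBX7, downstream at chr22:39130772-39152680, had 220, 166, 438 and 237 reads and log2 ratios of 1.44 and -0.72 in these comparisons. Over all 9 genes fixed as neighbours of the cluster, 3 were higher between the mock libraries (CBX7, SUN2 at 1.32 and NPTXR at 1.20) and 0 lower. Of all measured genes 9.47% were higher and 5.52% lower in that comparison. Between OVCAR3 KO and mock, 0 were higher and 3 lower (PDGFB at -2.31, NPTXR at -1.76 and CBX6), where 22% and 15.5% of all measured genes were. In SKOV3 none of the 9 passed the rule, where 0.799% of all measured genes were higher and 0.739% lower. No neighbour count was tested against these shares.

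**Figure D5:**
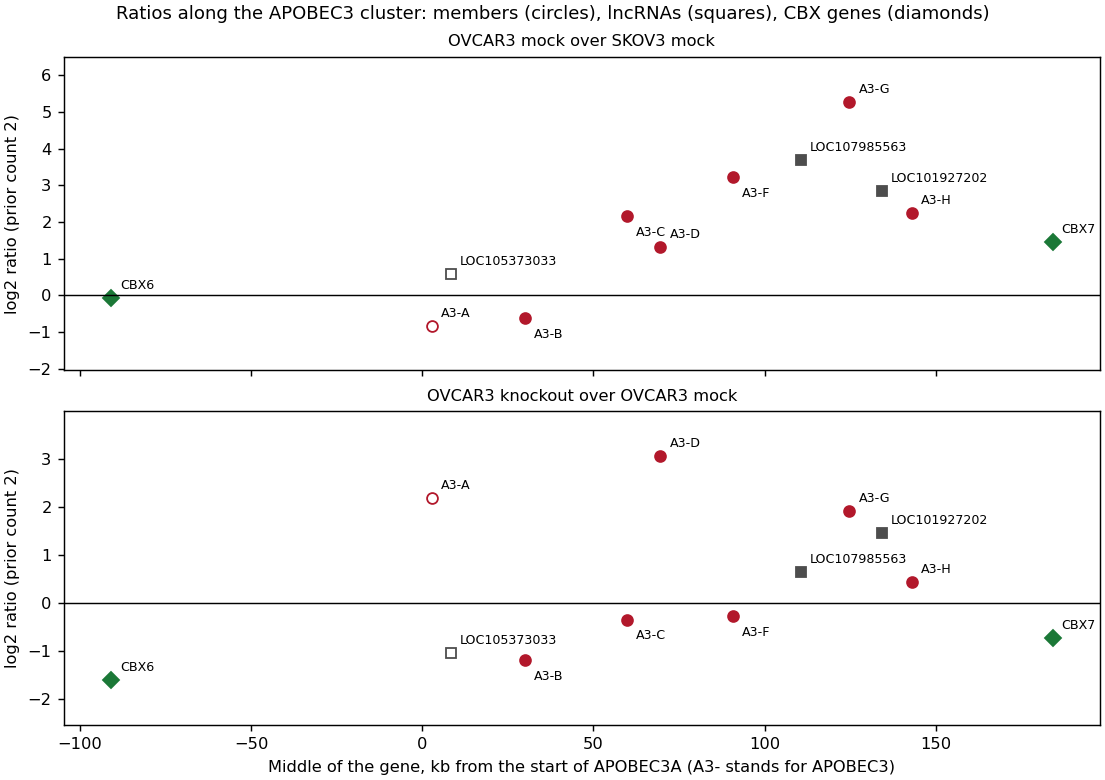
Log2 ratio (prior count 2) of each gene against the distance of its middle from the start of APOBEC3A in kb, for OVCAR3 mock over SKOV3 mock (top) and OVCAR3 KO over OVCAR3 mock (bottom). Circles are APOBEC3 genes (written A3-), squares lncRNA genes and diamonds CBX6 and CBX7, and open symbols were not measured. From APOBEC3C to APOBEC3H all members lie above 0 in the top panel, and the bottom panel has members on both sides of 0.

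Other members of the wider deaminase family were scarce. APOBEC1 had 0 reads in all libraries, APOBEC2 at most 7 and APOBEC4 at most 2. In the list of 8 deaminase relatives and RNA editors, 3 were measured. Between OVCAR3 KO and mock, ADAT2, a tRNA adenosine deaminase, was higher (log2 ratio 1.66) and ADAR, the main RNA adenosine deaminase, was lower (-1.14). Of all measured genes 22% were higher and 15.5% lower between OVCAR3 KO and mock. None of the 3 passed between the mock libraries (9.47% of all measured genes higher, 5.52% lower) or in SKOV3 (0.799% and 0.739%).

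The genes of related pathways were counted by the same rule, naming up to 3 genes per list. Between OVCAR3 KO and mock, 22% of all measured genes were higher and 15.5% lower (12.8% and 18.3% of protein-coding ones). Between the mock libraries 9.47% of all measured genes were higher and 5.52% lower, and in SKOV3 KO 0.799% and 0.739%. List counts are to be read beside these shares, and no list was tested against them. Of the other restriction genes of retroelements and retroviruses, 2 of 19 measured were higher in OVCAR3 KO than in mock and 3 lower, with a median of -0.49. The lower ones were TRIM25, a ubiquitin ligase of RNA sensing (-1.93), N4BP1 (-1.11) and SAMHD1, a dNTP hydrolase (-1.09). The higher ones were TRIM22 with 24 against 4 reads and TREX1 with 132 against 72, both named after their values were seen. Between the mock libraries 4 of 18 were higher in OVCAR3 and 1 was lower. Among the higher were TRIM25 (1.39), SERINC5 (1.26) and BST2 (2.36, from 34 against 7 reads, named after its value was seen). In SKOV3 KO 0 of 17 were higher and 1 was lower, TRIM22 with 6 against 24 reads, named after its value was seen.

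Interferon is known to raise several APOBEC3 genes. Of the interferon-stimulated genes measured, 4 of 23 were higher in OVCAR3 KO and 3 lower, with a median log2 ratio of 0.11, PARP9 at 1.71, OASL at -1.40 and OAS3 at -1.40. In SKOV3 KO 2 of 23 were higher and 0 lower, MX1 with 22 against 14 reads and OAS1 with 18 against 9, both named after their values were seen. Between the mock libraries IFI6 alone passed the rule, at 1.47, of 22 measured.

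NF-kB and protein kinase C are known inducers of APOBEC3B, the only member that was lower by size in OVCAR3 KO than in mock. Of this list 8 of 13 were lower there and 0 higher, with a median of -1.32, RELB, a subunit of the non-canonical pathway, at -2.52, its partner NFKB2 at -2.52, the feedback inhibitor TNFAIP3 at -2.37 and PRKCA at -1.31. In SKOV3 KO, where APOBEC3B was at 0.50, 0 of 13 passed, with RELB at 0.48, NFKB2 at 0.14 and PRKCA at -0.25. Between the mock libraries NFKB2 alone passed (1.02). Whether APOBEC3B and these genes are linked was not tested.

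The DREAM complex, which acts downstream of p21, is known to repress APOBEC3B. In OVCAR3 KO 4 of the 17 genes of this list were lower and 0 higher, among them CDKN1A, which encodes p21 (-3.10), LIN37 (-1.96) and MYBL2 (-1.06), with a median of -0.04. In SKOV3 KO 0 of 17 passed, with CDKN1A at 0.04 and MYBL2 at 0.30, and between the mock libraries LIN9 alone passed, at -1.45.

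Uracil left by APOBEC3 deamination is removed by base excision repair. UNG, the main uracil glycosylase, was at -0.16 in OVCAR3 KO (-0.31 to 0.00) and -0.03 in SKOV3 KO (-0.16 to 0.11). Of the 20 uracil and abasic site repair genes, 1 was higher in OVCAR3 KO, REV1 with 695 against 375 reads (named after its value was seen), and 3 were lower, XRCC1 (-1.46), PARP1 (-1.36) and APEX2 (-1.09). REV3L alone passed between the mock libraries (-1.06), and 0 of 20 passed in SKOV3. Of 10 genes for partners of APOBEC3 proteins or of the Vif ubiquitin ligase, 3 were lower in OVCAR3 KO, ELAVL1 (-1.29), HNRNPU (-1.25) and PABPC1 (-1.18), and 0 passed between the mock libraries or in SKOV3.

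For these lists, the difference between the lines and the knockout effect were fitted over all 4 libraries with edgeR's quasi-likelihood test, which leaves 1 residual degree of freedom. With 1 library per group, the spread behind its p-values is how far the knockout ratio differed between the lines. It cannot be told apart from technical spread between single libraries. A knockout difference seen in only 1 line therefore counts as spread in this fit. Of 129 genes 112 could be fitted. For the line difference 0 passed an adjusted p of 0.05, with 19 at an unadjusted p under 0.05, where 0.0293% of all 13670 genes were called higher and 0.00732% lower in OVCAR3. For the knockout 0 passed in edgeR, with 0 at an unadjusted p under 0.05, and the background was 0 in both directions. DESeq2 and limma-voom also called 0 of the list genes in either contrast, with 19 and 20 at an unadjusted p under 0.05 for the lines and 5 and 1 for the knockout.

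Among 11597 other protein-coding genes, the 5 whose level over the 4 libraries was most like that of APOBEC3C were KCNN3, SLC27A1, ID1, NRSN2 and C3. Likeness was the Euclidean distance of centred log2 CPM, between 0.09 and 0.22. ID1, the closest of those with over 50 CPM in every library, had 98.2, 93.2, 462 and 381 CPM in the mock and KO libraries of SKOV3 and then of OVCAR3. SLC27A1 had 7.44, 7.10, 31.5 and 24.3 CPM, while KCNN3, NRSN2 and C3 were under 3 CPM throughout. With 4 libraries such a likeness describes these libraries alone.

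Of the promoters, only that of APOBEC3H was in the RefSeq promoter table used (GRCh38.p14, from 250 bases before to 50 after the start). It held none of the 6 motifs searched on both strands: the NF-kB site, E2F sites (TTCCCGC or TTGGCGC or TTCGCGC or TTGCCGC), the CHR element (TTTGAA or TTCGAA), the interferon response core (GAAA on both sides of any 2 bases), the GAS site TTCNNNGAA and the TATA box TATAAA. These occurred in 11.3%, 13.0%, 16.4%, 3.6%, 7.7% and 11.5% of 35116 promoters of the same length. The absence of these letters says nothing about binding of any factor.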

How the data were processed

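Strand-specific libraries (NEBNext Ultra II Directional) came from Trizol-extracted total RNA, per the labels' protocols. Per the submitters' processing notes, reads went through TopHat, with GRCh38 as the genome. For the counting tool, annotation release, strand setting and multi-mapped reads, the handling is not given in the sources used. The values deposited by the authors are raw counts per gene symbol, not normalised, in 58173 rows. The 2687 symbols that stood in several rows were summed, and no APOBEC3 gene was among them.

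Groups came from the labels. Counts were scaled with TMM factors (edgeR 4.0.16, R 4.3.3) from 13670 genes with at least 1 CPM in at least 2 libraries, giving 1.02, 1.04, 1.01 and 0.931 for SKOV3 mock, SKOV3 KO, OVCAR3 mock and OVCAR3 KO. Log2 ratios used a prior count of 2. Exact 95% intervals used Poisson or Clopper-Pearson bounds without the prior. The 4-library fit used edgeR's quasi-likelihood test with line and knockout as terms and Benjamini-Hochberg adjustment over all genes, with DESeq2 1.42.0 and limma-voom (limma 3.58.1) as alternatives. The size rule and this fit were tested on simulated data.

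The members and lists were chosen with earlier results of these data known. Named genes were all members, CBX6, CBX7, CDKN1A, MYBL2, RELB, NFKB2, PRKCA and UNG, up to 3 genes per list and comparison with the largest ratios past the size rule and at least 100 summed counts, and the 5 genes nearest to the most abundant member; some genes named by this rule are not reported here. Coordinates are from RefSeq GRCh38.p14 (genes) and GENCODE 29 (motif stretches), and 85.2% of symbols matched the RefSeq table. Stretches were found in the coding sequence of GENCODE 29 transcripts. The comparison of whole proteins that was planned was not run.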

Additional observations from a re-analysis of the deposited data

Results flagged for a closer look

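A pair of genes had opposite signs of the knockout ratio in the lines. APOBEC3B had a log2 ratio of knockout over mock of 0.50 in SKOV3 (exact 95% counting interval 0.12 to 0.89) and -1.18 in OVCAR3 (-2.07 to -0.48). APOBEC3F had 0.31 in SKOV3 (0.07 to 0.56) and -0.28 in OVCAR3 (-0.38 to -0.18). Both genes are noted because the only library pair of one line moved one way and that of the other line the opposite way, with intervals that leave out 0. The difference between the lines was not tested, since each group held 1 library. The OVCAR3 value of APOBEC3F came to -0.03 once the GC and length trend was removed, and that of APOBEC3B to -1.08.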

How the results depend on the processing

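No paired analysis was possible because each group held 1 library, all numbered 1, so that the number pairs no replicates. The 4-library fit kept the other factor (line or knockout) as a block, and without it 0 list genes were called for either contrast. No log2 ratio of a member changed sign under any of the settings tried. Members counted by size were more sensitive. Between SKOV3 KO and mock, 1 was lower without a filter (APOBEC3G, 1 against 8 reads), and 2 were higher at a fold of 1.5. Between OVCAR3 KO and mock, the number lower went from 1 (APOBEC3B, 20 against 53 reads) to 0 with at least 5 CPM required and to 0 at a fold of 3. Between the mock libraries, 3 were higher with at least 5 CPM, and 1 was lower at a fold of 1.5. The family sum in SKOV3 mock was 61.3 CPM without mitochondrial rows and 58.4 with TMM from all genes, an alternative added after seeing the data. In SKOV3 KO it was 70.6 without mitochondrial rows. In OVCAR3 mock it was 318.0 with DESeq2 size factors, 339 without mitochondrial rows and 319.9 with TMM from all genes. In OVCAR3 KO it was 299, 309 with no factor, 369 without mitochondrial rows and 284 with TMM from all genes, so the order of the OVCAR3 pair turned under DESeq2 size factors and TMM from all genes, and the pair stood close with no factor (307.9 in mock). With the median transcript length, the per-length share of APOBEC3C was 41.5%, 36.7%, 27.6% and 20.7% in SKOV3 mock, SKOV3 KO, OVCAR3 mock and OVCAR3 KO, and that of APOBEC3F 44.8%, 46.9%, 63.1% and 49.5%. With the longest protein-coding transcript, also added afterwards, APOBEC3C had 46.5% in OVCAR3 mock and 31.1% in OVCAR3 KO, while in OVCAR3 KO APOBEC3F had 27.1% and APOBEC3G 27.2% (19.8% with the longest transcript of any type). Without a filter 1 list gene was called for the line difference, TNFAIP3, lower in OVCAR3. Over all genes the lines differed at 4 higher and 1 lower, against 123 and 63 with DESeq2, 52 and 9 with at least 5 CPM, 142 and 84 without a filter, and 0 with DESeq2 size factors in edgeR. For OVCAR3 KO against SKOV3 KO, higher genes were 62.9% of those past the size rule, and 53.2%, 54.9% and 47.9% under DESeq2 size factors, no factor and TMM from all genes. Except where a setting shows it, the cause was not tested.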
